A study of Mus musculus with 24 samples.

Results

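The vastus intermedius was compared with the vastus lateralis, its neighbour in the quadriceps of the mouse thigh, at the E18.5 stage, shortly before birth, by the positions of open chromatin. Open chromatin was read by ATAC-seq, in which the transposase Tn5 cuts accessible DNA. Peaks of the 3 vastus intermedius and the 3 vastus lateralis lists were merged wherever they overlapped by at least 1 bp, which gave 473757 regions. A library called a region when any of its peaks overlapped it. The regions described here were called in 3 of 3 libraries of one muscle and in 0 of 3 of the other. They numbered 2995 of the 473757 regions, or 8.61% of the 34795 regions called in exactly 3 of the 6 libraries.

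The vastus intermedius is a deep, slow-biased quadriceps head and the vastus lateralis a superficial, fast-biased one, as the study classed them. Slow fibres contract with the slow myosin heavy chain encoded by Myh7 and rely on oxidative metabolism, whereas adult fast fibres use Myh2, Myh1 or Myh4. Before birth most fibres also carry the embryonic and neonatal myosins encoded by Myh3 and Myh8, and the adult fibre pattern is still being set up. Enhancers and promoters in use are usually open, so a list of open regions gives a map of candidate regulatory DNA but no level of RNA.

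The study sampled 4 hindlimb muscles of FVB/NJ mice, an inbred strain, at E18.5 and in adults. All animals were male and no genetic change or treatment was given. Each E18.5 library pooled the left and right muscle of up to 5 male embryos of 1 litter, and 3 litters were used. Every litter gave both vasti, so library 1 of the vastus intermedius and library 1 of the vastus lateralis shared a litter, and likewise for 2 and 3. The adult libraries, used here for comparison, came from 3 mice whose age is given both as postnatal day 56 and as 3 to 4 months. The adult vastus intermedius lists held 115333 to 145382 peaks and the adult vastus lateralis lists 155846 to 219114, without overlap, and adult counts at loci below are of the E18.5 regions that each adult list called. Nuclei came from undigested tissue, so every cell type of the muscle could contribute. A change in the number of cells of a type cannot be told apart from a change in the chromatin of each cell.

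The E18.5 vastus intermedius lists held 175295, 204599 and 142580 peaks in litters 1, 2 and 3. The vastus lateralis lists held 163704, 149346 and 178191 peaks. The groups overlapped, with the vastus intermedius longer in litters 1 and 2 and shorter in litter 3. The means were 174158 ± 31025 and 163747 ± 14423 (SD, n = 3 each), and their difference of 10411 peaks was not larger than the spread (two-sided exact permutation p = 0.7; 3 libraries against 3 cannot go below 0.1). Read depth per library is unknown, because the lists hold positions alone. List length was therefore evened out in a second setting by taking the first 115333 rows of each list, the length of the shortest list of the series. Peaks early in a list were wide and peaks late in it narrow, with a mean width of 1003 to 1154 bp over the first 20000 rows and 268 to 368 bp over the last, so an early row was taken as a strong peak.

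All 10 skeletal muscle marker loci held a called region in each of the 6 libraries. A locus means the gene body with 10 kb on each side. Their calls summed to 60, 76 and 53 in the vastus intermedius and 61, 57 and 68 in the vastus lateralis. The muscle-determining gene Myod1 had 4, 3 and 5 called regions in the vastus intermedius and 6, 3 and 5 in the vastus lateralis. The skeletal actin gene Acta1 had 4, 6 and 6 in the vastus intermedius against 5, 3 and 6 in the vastus lateralis. Marker loci of other cell types were called in both muscles too: endothelial loci summed to 98 to 169 calls in the vastus intermedius and 135 to 139 in the vastus lateralis, and fibroblast and fibro-adipogenic loci to 98 to 131 and 92 to 128. Of the 10 red blood cell loci, Alas2 and Gata1 were called in no library. The part of cell composition in the results below was not tested.

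Among the separated regions, 4 are shown as sequence, because each covers an annotated start of a gene and 3 of those genes belong to lists followed here. The Myom1 start lies inside the bounds of its gene, more than 1 kb from either end. Mybpc1 encodes the slow-type myosin-binding protein C of the thick filament, Myom1 encodes myomesin of the M-band, Cd68 encodes a lysosomal glycoprotein of macrophages, and Gramd4 encodes a GRAM-domain protein and stood apart in the adult vasti as well. Mybpc1, Myom1 and Gramd4 were on the vastus intermedius side and Cd68 on the vastus lateralis side. The 250 bases before each start are from RefSeq (GRCm38.p6, the mm10 build), 5′ to 3′ on the strand of the gene, and capitals mark matches to the E-box CANNTG, the letters bound by myogenic factors among others.
Mybpc1, chr10:88605153-88605402, minus strand: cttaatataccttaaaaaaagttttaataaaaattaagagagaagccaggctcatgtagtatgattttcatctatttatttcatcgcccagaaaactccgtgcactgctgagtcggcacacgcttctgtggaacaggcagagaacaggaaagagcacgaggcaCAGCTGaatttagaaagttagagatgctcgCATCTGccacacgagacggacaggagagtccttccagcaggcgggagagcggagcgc
Myom1, chr17:71019307-71019556, plus strand: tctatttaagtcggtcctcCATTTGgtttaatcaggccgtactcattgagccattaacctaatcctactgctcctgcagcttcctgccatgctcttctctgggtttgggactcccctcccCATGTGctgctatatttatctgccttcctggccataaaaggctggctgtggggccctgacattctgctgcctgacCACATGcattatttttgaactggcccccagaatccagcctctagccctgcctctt
Gramd4, chr15:86057445-86057694, plus strand: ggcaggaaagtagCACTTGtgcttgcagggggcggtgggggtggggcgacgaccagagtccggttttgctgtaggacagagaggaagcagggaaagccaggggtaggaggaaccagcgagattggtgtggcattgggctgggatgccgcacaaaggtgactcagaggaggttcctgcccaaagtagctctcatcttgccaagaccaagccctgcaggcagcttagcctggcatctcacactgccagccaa
Cd68, chr11:69666171-69666420, minus strand: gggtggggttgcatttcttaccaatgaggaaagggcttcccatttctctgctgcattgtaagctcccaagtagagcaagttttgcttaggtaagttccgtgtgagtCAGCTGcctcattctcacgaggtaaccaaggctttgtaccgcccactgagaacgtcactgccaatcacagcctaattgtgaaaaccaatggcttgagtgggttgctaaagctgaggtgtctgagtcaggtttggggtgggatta
The Mybpc1 window held 2 E-boxes, Myom1 held 3, and Gramd4 and Cd68 held 1 each. All lay inside the called regions, which covered 144, 250, 250 and 249 of the 250 bases in the same order. An E-box is common, being found in 66.2% of 32851 promoter windows of this length. The AP-1 letters TGANTCA occurred 2 times at Cd68 and 1 time at Gramd4, against 6.75% of all windows with a match. A CArG box, the motif of serum response factor, was found at Myom1 and in 1.47% of all windows. Neither the MCAT letters CATTCC nor a MEF2 motif was found in the 4 windows. All searches read both strands, and a match here is a match of letters, not a measured binding site.

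At Mybpc1 the region chr10:88604893-88605296 was called at rows 41552, 84906 and 74461 of the 3 vastus intermedius lists and was missing from all 3 vastus lateralis lists. It stayed separated with the first 115333 rows and when a call needed peaks over 50% of the region. In adults all 3 vastus intermedius libraries called it, at rows 7201, 9606 and 8903, whereas 1 of 3 vastus lateralis libraries did. Adult soleus and adult gastrocnemius each called it in 2 of 3 libraries. At E18.5 it was called in 2 of 3 soleus and 1 of 3 gastrocnemius libraries. The adult vastus intermedius rows were all earlier than the E18.5 rows. A neighbouring interval about 1 kb upstream was called in all 3 vastus intermedius and 2 of 3 vastus lateralis libraries at E18.5, as the peak map shows. At Myom1 the region chr17:71019296-71019928 was called at rows 69497, 70157 and 102896 in the E18.5 vastus intermedius and in no E18.5 vastus lateralis library. All 6 adult vastus libraries called it, so the E18.5 separation at Myom1 had no counterpart in the adult vasti. With the 50% cover neither Myom1 nor Gramd4 was separated.

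**Figure D1:**
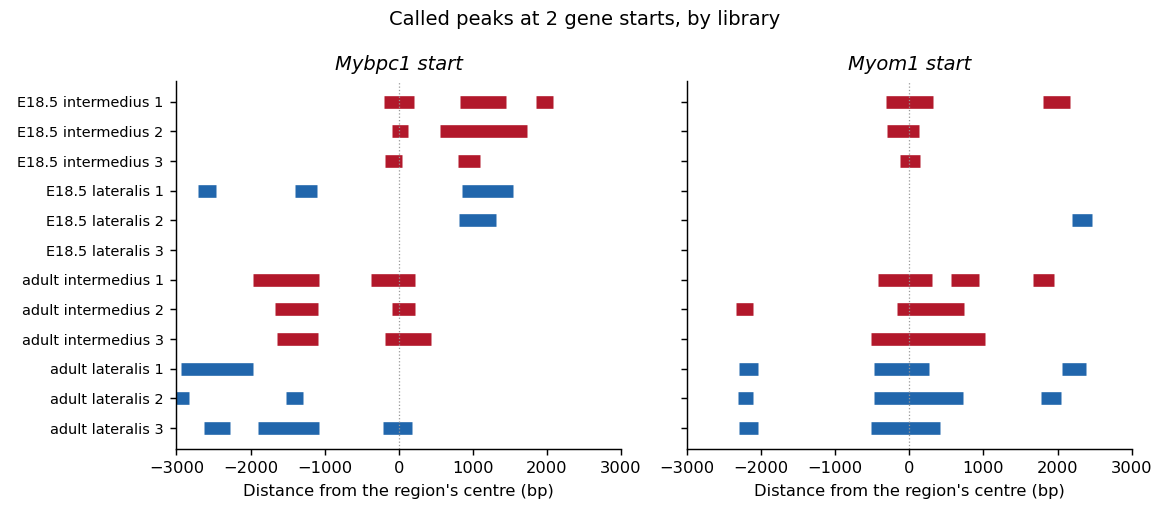
Called peaks around the Mybpc1 and Myom1 starts in 12 vastus libraries (rows, vastus intermedius in red, vastus lateralis in blue) against distance in bp from the centre of the separated region, with positive values at higher genome positions. The dotted line crosses a peak in all 3 E18.5 vastus intermedius libraries and in none of the E18.5 vastus lateralis libraries, and in the adults at Myom1 it crosses a peak in all 6. The Myom1 start shown is the one inside the gene.

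Of the regions called in 2 or more of the 6 libraries (190199), 1518 were called in 3 of 3 vastus intermedius and 0 of 3 vastus lateralis libraries (0.798%), and 1477 the other way round (0.777%). Just outside this threshold, 4238 regions were called in 3 vastus intermedius libraries and 1 vastus lateralis library, and 14281 in 2 and 0. On the vastus lateralis side 4204 regions were called in 3 vastus lateralis libraries and 1 vastus intermedius library, and 13046 in 2 and 0. Another 42393 regions were called in all 6 libraries, and 283558, or 59.9% of all regions, in a single one. Disagreement between single libraries was therefore far more frequent than a clean difference between the muscles.

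With the first 115333 rows, 908 regions were on the vastus intermedius side (0.7% of 129707) and 976 on the vastus lateralis side (0.752%), together 8.54% of the regions called in exactly 3. The regions separated in both settings were 462 for the vastus intermedius, 30.4% of the full-list regions and 50.9% of the first-row regions. For the vastus lateralis they were 407, or 27.6% and 41.7%. All 446 vastus intermedius and all 569 vastus lateralis regions that appeared only with the first rows had a call of the other muscle further down a full list. The separated regions lay low in their lists, at a median of 52.1 to 57.7% of the way down for the vastus intermedius and 56.5 to 62.3% for the vastus lateralis. Regions called in all 6 libraries lay at 11.2 to 16.6%.

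The muscle labels were set against the 9 other ways to divide the 6 lists into 3 and 3. The labelled muscles gave 2995 separated regions and the other divisions 2719 to 5817 (median 2940), 4 of them at least as many (one-sided exact permutation p = 0.5). Keeping 1 library of each litter on each side leaves 4 divisions, and there the labelled muscles gave the most, 2995 against 2719 to 2940. This is the smallest p the 3 litters allow (exact permutation within litters p = 0.25), so it cannot pass a threshold. The same order within litters was seen with the first rows, with 1884 regions against 1470 to 1610 (exact permutation p = 0.25), and with the first 57666 rows, with 728 against 485 to 563. It was not seen when peaks up to 100 bp apart were merged, where the labelled muscles gave 3071 and the 3 other divisions 2844 to 3130 (exact permutation within litters p = 0.5). The 6 divisions that put both libraries of a litter on one side gave up to 5817 regions with full lists.

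**Figure D2:**
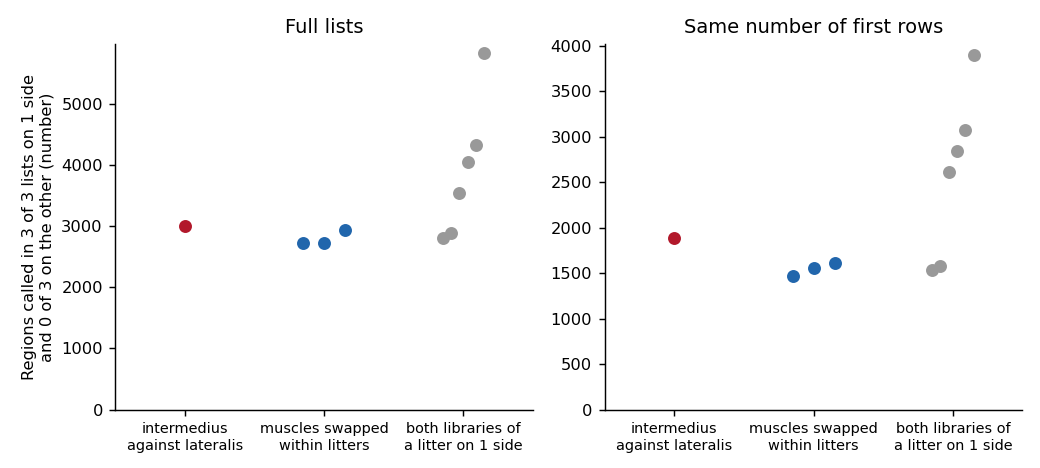
Number of regions called in all 3 lists on one side and none on the other (vertical axis from 0), for the labelled muscles (red), the 3 divisions that swap muscles within litters (blue) and the 6 that put both libraries of a litter on one side (grey), with full lists (left) and the first 115333 rows (right). The labelled muscles lie at 2995 and 1884, above the within-litter divisions in both panels and below 4 of the grey ones.

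Whole lists did not resemble each other detectably more within a muscle than between muscles. The Jaccard index, the share of called regions that 2 libraries have in common, averaged 0.306 over the 6 pairs of the same muscle (0.272 to 0.331). It averaged 0.305 over the 6 pairs of the other muscle and another litter (0.282 to 0.32) and 0.32 over the 3 pairs of the same litter (0.279 to 0.388). The highest value, 0.388, belonged to the 2 vasti of litter 1, and that pair also stood highest with the first rows, at 0.467. The mean within muscles minus that between muscles was -0.00408 (one-sided exact permutation p = 0.6, within litters p = 0.5). Leaving out the litter 1 library of the vastus intermedius turned this difference to 0.00997, and leaving out the litter 1 library of the vastus lateralis turned it to 0.000126. In the adult vasti the same difference was 0.0128, and 5108 regions separated the muscles (16.5% of those called in exactly 3), of which 1025 were on the vastus intermedius side (0.61% of the adult regions called in 2 or more) and 4083 on the vastus lateralis side (2.43%). With the first 115333 rows of each adult list these were 1427 and 1867, or 3294 in all. The adult labels gave more than each of the 9 other divisions, which ran from 2479 to 3451 with full lists and 1696 to 2616 with the first rows (exact permutation p = 0.1 in each, the smallest possible). With 1 library of each mouse on each side, the adult p was 0.25 in each setting (exact permutation within animals). The within-litter p for separated regions at E18.5 was also 0.25. A difference between the stages was not tested.

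**Figure D3:**
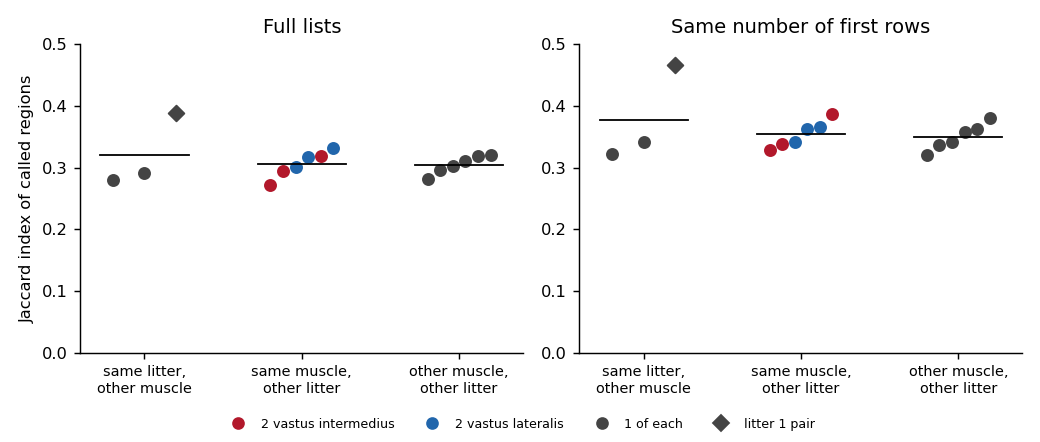
Jaccard index of called regions (vertical axis from 0) for the 15 pairs of the 6 E18.5 vastus libraries by kind of pair, with full lists (left) and the first 115333 rows (right). Horizontal lines are means. The diamond marks the 2 vasti of litter 1, at 0.388 and 0.467, above every other pair in its panel, and the pairs of the same muscle overlap the pairs of different muscles.

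The separated regions were mostly far from gene starts. On the vastus intermedius side 9.03% lay within 1 kb of a gene end, either the start or the stop (95% Clopper-Pearson interval for counting error 7.63 to 10.6), 54.3% lay elsewhere inside a gene and 36.6% between genes. The vastus lateralis side had 8.73% (7.34 to 10.3), 54.1% and 37.2%. The other regions called in 3 of 6 had 9.69% within 1 kb, and those called in all 6 had 35.9%. Promoter windows, 250 bases before to 50 after a start, were touched by 28 vastus intermedius (1.84%) and 26 vastus lateralis regions (1.76%). The shares were 2.34% of the other regions called in 3 of 6 and 26.3% of those called in all 6. Exons, introns and untranslated parts were not told apart, because the annotation used gives gene bounds. The vastus intermedius regions had a median width of 648 bp and the vastus lateralis regions 735 bp. Chromosome Y held 32 vastus intermedius regions (2.11%) and 6 vastus lateralis regions (0.406%), against 1.16% of the other regions called in 3 of 6.

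The E18.5 separated regions were looked up in the 18 libraries that the choice did not use. A separated region was called in a median of 5 of the 18, against 6 for the other regions called in 3 of 6. In the adult vastus intermedius libraries 24.5 ± 3.35% of the vastus intermedius regions and 25.4 ± 4.44% of the vastus lateralis regions were called (SD, n = 3). In the adult vastus lateralis libraries these were 33.0 ± 2.22% and 33.4 ± 2.35%. Within a library, the share of vastus intermedius regions called minus that of vastus lateralis regions was -0.883 ± 2.39 percentage points in the adult vastus intermedius and -0.33 ± 2.11 in the adult vastus lateralis (SD, n = 3 each), so neither adult muscle favoured its own E18.5 regions beyond the spread. Among the 6 E18.5 libraries of soleus and gastrocnemius, soleus 1 called 39.6% of the vastus intermedius and 27% of the vastus lateralis regions, a gap of 12.58 points. The gap in the other 5 ran from -1.79 to 2.93 points. Of the 63 separated regions called in none of the 18 libraries, 35 were on the vastus intermedius and 28 on the vastus lateralis side.

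**Figure D4:**
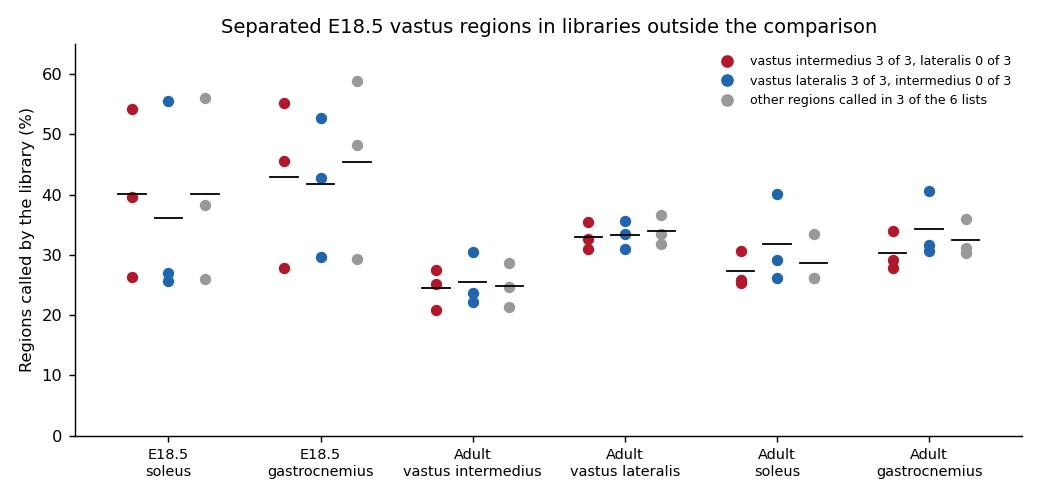
Share in percent of the E18.5 vastus intermedius regions (red), vastus lateralis regions (blue) and other regions called in 3 of the 6 lists (grey) that each of 18 other libraries called, by group, with lines for means. The 3 colours overlap in every group, and in E18.5 soleus the middle red point at 39.6% belongs to the library whose blue point is at 27%.

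Few of the regions were separated the same way in adults. Of the 1518 vastus intermedius regions, 6 were also called in 3 of 3 adult vastus intermedius and 0 of 3 adult vastus lateralis libraries (0.395%), and 23 were called the opposite way (1.52%). Of the 1477 vastus lateralis regions, 20 were separated in the same direction in adults (1.35%) and 7 in the opposite one (0.474%). Over all regions called in 2 or more of the E18.5 lists the shares were 0.277% for the adult vastus intermedius side and 1.3% for the adult vastus lateralis side, so the shares lay near this background. The 6 vastus intermedius regions were at the Gramd4 start, inside Fam193a, Glis2, Gramd3 and Abcb10, and nearest to Iyd. The Iyd region alone of these 6 was separated at E18.5 with the first rows. Glis2 encodes a zinc finger factor, Abcb10 a mitochondrial membrane transporter, and Iyd an enzyme that recovers iodide. The first 10 vastus lateralis regions by list position included ones inside Inpp5a, which encodes an inositol phosphatase, and Papss2, which encodes an enzyme that makes the sulphate donor used in cartilage matrix.

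Fibre-type genes were followed locus by locus, by the number of regions each library called. The counts were higher without overlap in the vastus intermedius, meaning its lowest library lay above the highest vastus lateralis library, at 691 of 32615 loci (2.12%). They were higher without overlap in the vastus lateralis at 443 loci (1.36%). With the first rows these were 520 (1.64%) and 611 (1.93%), so the sides changed places. A total of 120 loci were on the vastus intermedius side in both settings and 81 on the vastus lateralis side. Over all loci the calls summed to 186036, 207919 and 148163 in the vastus intermedius and 178479, 159940 and 182734 in the vastus lateralis, and the part of list length in the calls at single loci was not tested.

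None of the 17 slow fibre loci and none of the 17 fast fibre loci were free of overlap between the muscles in the full lists. The slow loci summed to 144, 152 and 103 calls in the vastus intermedius and 126, 108 and 112 in the vastus lateralis, and the median difference per locus was 0.33 regions. The fast loci summed to 116, 126 and 107 in the vastus intermedius and 124, 111 and 113 in the vastus lateralis, with a median difference of 0.00, the value over all genes. Over all 32615 loci, 2.12% were higher without overlap in the vastus intermedius and 1.36% in the vastus lateralis. Having 0 of 17 such loci in each list was near this background.

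Of the slow genes, Myh7 had 8, 7 and 6 called regions in the vastus intermedius and 5, 8 and 8 in the vastus lateralis. Its locus held 1 separated region, chr14:54992598-54993374 inside the gene, and this was on the vastus lateralis side in the full lists and on neither side in the first rows. Atp2a2, which encodes the slow-type calcium pump of the sarcoplasmic reticulum, had 16, 17 and 12 regions in the vastus intermedius against 14, 9 and 11 in the vastus lateralis. It was higher in the vastus intermedius in each litter, although the groups overlapped. In the first rows Atp2a2 had 9, 12 and 7 in the vastus intermedius and 11, 9 and 7 in the vastus lateralis, higher in 1 litter. In adults the counts were 11, 10 and 10 in the vastus intermedius against 4, 5 and 7 in the vastus lateralis, and 11, 10 and 8 against 1, 3 and 6 with the first rows. Tnnt1, which encodes slow troponin T, had 5, 10 and 6 in the vastus intermedius and 7, 5 and 7 in the vastus lateralis, with overlap. Myl2, Myl3 and Tnni1, encoding slow myosin light chains and slow troponin I, also overlapped, with differences in mean of 1.67, 0 and 0 regions.

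Of the fast genes, Myh4 had 1, 0 and 0 called regions in the vastus intermedius and 0, 0 and 1 in the vastus lateralis, and Myh1 had 2, 1 and 1 against 1, 1 and 1. The fastest myosin gene thus had almost no called region in either foetal muscle. Myh2, which encodes the oxidative fast myosin, had 3, 4 and 2 regions in the vastus intermedius and 1, 2 and 1 in the vastus lateralis, higher in each litter but with an overlap at 2. In the sums above Myh2 was counted with the slow fibre loci, not with the fast ones. Tnnt3, which encodes fast troponin T, had 5, 6 and 7 in the vastus intermedius and 8, 7 and 8 in the vastus lateralis, lower in the vastus intermedius in each litter and overlapping at 7. Tnnt3 in the first rows had 5, 4 and 5 in the vastus intermedius and 5, 4 and 7 in the vastus lateralis, equal in litters 1 and 2. Actn3, which encodes the fast-fibre Z-disc protein alpha-actinin-3, had 6, 8 and 6 in the E18.5 vastus intermedius and 5, 7 and 8 in the E18.5 vastus lateralis. In adults Actn3 had 4, 3 and 3 in the vastus intermedius and 11, 9 and 9 in the vastus lateralis. With the first 115333 rows of each adult list they were 4, 2 and 3 in the vastus intermedius against 10, 7 and 9 in the vastus lateralis. The adult groups did not overlap in either setting, the foetal ones did, and the difference between stages was not tested. The developmental myosin gene Myh3 had 9, 11 and 5 in the vastus intermedius and 12, 5 and 6 in the vastus lateralis, and Myh8 had 3, 2 and 0 against 2, 1 and 3, both with overlap.

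**Figure D5:**
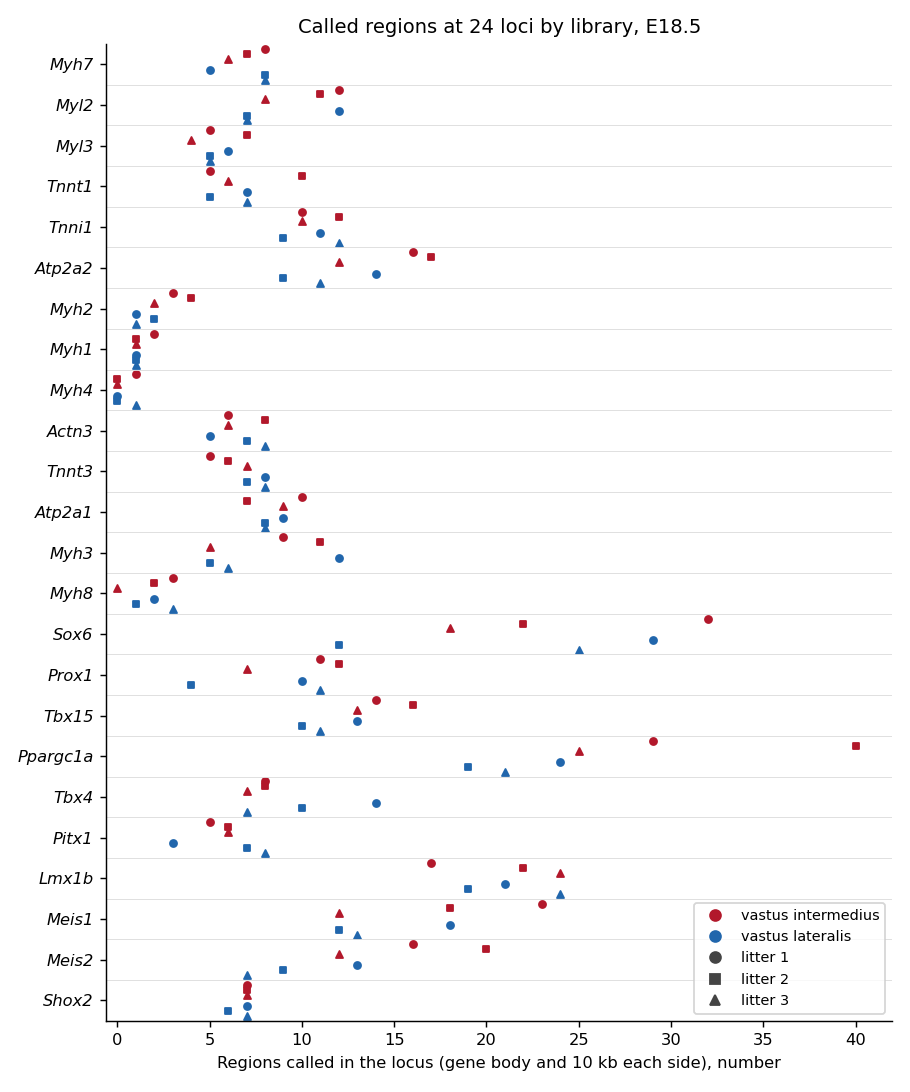
Number of called regions (horizontal axis) at 24 loci in the 6 E18.5 libraries, vastus intermedius in red above vastus lateralis in blue, with marker shape for the litter. Ppargc1a, at 25 to 40 regions in the vastus intermedius and 19 to 24 in the vastus lateralis, is the one locus of the 24 whose groups do not overlap.

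Among the 20 regulators of slow fibres, 2 loci were higher without overlap in the vastus intermedius, or 10% against 2.12% of all loci, and 0 in the vastus lateralis. The 20 loci held more called regions than most, with a mean of 17.8 per vastus intermedius library against 5.54 over all genes. Ppargc1a, which encodes the coactivator PGC-1α of mitochondrial and slow-fibre genes, had 29, 40 and 25 called regions in the vastus intermedius and 24, 19 and 21 in the vastus lateralis (means 31.3 ± 7.77 and 21.3 ± 2.52, SD, n = 3 each). With the first rows it had 23, 17 and 19 in the vastus intermedius and 15, 15 and 15 in the vastus lateralis, again without overlap. The first 57666 rows gave a difference in mean of -0.667, and without litter 2, with the remaining lists merged anew, the difference was 3.5 and the groups overlapped. Of the 95 regions of this locus, 6 were called in all 6 libraries, 48 in a single vastus intermedius library alone and 26 in a single vastus lateralis library alone. None was separated 3 of 3 against 0 of 3. In adults the Ppargc1a counts were 18, 26 and 16 in the vastus intermedius and 20, 14 and 14 in the vastus lateralis, with overlap, and with the first rows of the adult lists 18, 26 and 16 against 13, 11 and 14, without overlap.

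Mef2a, which encodes a MEF2 factor of muscle genes, had 14, 19 and 10 regions in the vastus intermedius and 9, 9 and 9 in the vastus lateralis. With the first rows the groups overlapped, at 9, 6 and 10 in the vastus intermedius and 8, 8 and 8 in the vastus lateralis, and the first 57666 rows gave a difference in mean of -0.667. Without litter 2 the difference with full lists was 3. A region inside Mef2a was separated on the vastus intermedius side in both settings, and the Mef2a counts include it, so they are not separate evidence. The slow-fibre factor gene Prox1 had 11, 12 and 7 in the vastus intermedius and 10, 4 and 11 in the vastus lateralis. Esrrg, which encodes an oestrogen-related receptor of oxidative fibres, was the nearest protein-coding gene to a vastus intermedius region 17117 bp away.

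Of the 20 regulators of fast fibres, none was free of overlap in the full lists. Sox6, which encodes a repressor of slow genes, had 32, 22 and 18 regions in the vastus intermedius and 29, 12 and 25 in the vastus lateralis. Tbx15, which encodes a T-box factor of glycolytic fibres, had 14, 16 and 13 in the vastus intermedius and 13, 10 and 11 in the vastus lateralis, overlapping at 13. Tbx15 in the first rows had 13, 9 and 11 in the vastus intermedius and 8, 7 and 6 in the vastus lateralis, without overlap. Separated regions of the vastus intermedius lay in 8 of the 20 fast regulator loci and those of the vastus lateralis in 1. For the slow regulators the numbers were 3 and 4 of 20 loci. Over all genes 1466 loci held a vastus intermedius region (4.49%) and 1499 a vastus lateralis region (4.6%). The fast regulator loci also held more called regions than most, with a mean of 18.6 per vastus intermedius library against 5.54 over all genes. Among the fast regulators, 2 loci held a vastus intermedius region separated in both settings and 1 a vastus lateralis region.

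Limb patterning genes, which set position along the leg before muscles form, mostly overlapped. Over all loci, 2.12% were higher without overlap in the vastus intermedius and 1.36% in the vastus lateralis with full lists. With the first rows these shares were 1.64% and 1.93%. Of the 30 limb patterning loci, 0 and 1 were higher in these directions with full lists, and 3 and 0 with the first rows. The 3 were Alx4, Gli3 and Osr2, which encode an aristaless-type homeobox factor, a mediator of hedgehog signalling and a zinc finger factor. The full-list locus was Hand2, which encodes a basic helix-loop-helix factor, with 3, 3 and 2 regions in the vastus intermedius and 4, 5 and 4 in the vastus lateralis, which overlapped with the first rows and without litter 1 (difference -1.5). Meis2, which encodes a homeobox cofactor, had 16, 20 and 12 in the vastus intermedius and 13, 9 and 7 in the vastus lateralis, higher in each litter with an overlap between 12 and 13. In the first rows Meis2 had 12, 7 and 13 in the vastus intermedius and 12, 8 and 7 in the vastus lateralis, higher in 1 litter. Tbx4, the hindlimb T-box gene, had 8, 8 and 7 in the vastus intermedius and 14, 10 and 7 in the vastus lateralis, overlapping at 7 and equal in litter 3. A region 54151 bp from Tbx4, outside the locus as counted here, was separated on the vastus intermedius side in both settings. Pitx1, Lmx1b, Meis1 and Shox2 overlapped, with differences in mean of -0.333, -0.333, 3.33 and 0.333 regions. None of the 39 Hox loci was free of overlap in the full lists.

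The remaining programs had few such loci. The full-list shares over all loci were 2.12% for the vastus intermedius and 1.36% for the vastus lateralis. Flnc, which encodes the Z-disc crosslinker filamin C, was the 1 of 20 sarcomere assembly loci higher in the vastus intermedius, with 12, 13 and 12 regions against 11, 9 and 9 in the vastus lateralis. Dcn, which encodes the matrix proteoglycan decorin and is also a fibroblast marker, was 1 of 20 extracellular matrix loci, with 4, 4 and 5 in the vastus intermedius and 3, 3 and 3 in the vastus lateralis. Fgf6, which encodes a growth factor of muscle, was the 1 of 20 growth and signalling loci higher in the vastus lateralis, with 3, 3 and 2 in the vastus intermedius and 5, 5 and 4 in the vastus lateralis. With the first rows Flnc, Dcn and Fgf6 overlapped, as did Flnc without litter 2 (difference 1). No locus was free of overlap among 10 embryonic and neonatal, 20 oxidative, 16 glycolytic, 20 myogenic and 12 neuromuscular junction loci in the full lists. Among marker lists, the vastus lateralis was higher at Cd68 (3, 3 and 3 regions in the vastus intermedius, 4, 4 and 5 in the vastus lateralis) and at Gata4, a heart factor gene (12, 12 and 11 against 18, 14 and 13). Both overlapped with the first rows, and without litter 1 the differences were -2.5 at Cd68 and -1.5 at Gata4. The Cd68 counts include the separated region at the Cd68 start, so they are not separate evidence. That region was called at row 123115 in the vastus lateralis list of litter 2 and was not separated with the first rows. The 12 immune loci as a list summed to 58 to 73 calls in the vastus intermedius and 64 to 68 in the vastus lateralis, and the 10 heart loci to 51 to 78 and 70 to 71.

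The separated regions that stood highest in the peak lists lay between genes or at genes outside the gene lists followed here. The exception was 1 region 910 bp from the pericyte gene Kcnj8 on the vastus lateralis side. On the vastus intermedius side the 12 regions included 4 on chromosome Y, one inside Dst, which encodes the cytoskeletal linker dystonin, one inside Ankfy1 and one inside Aig1. Another lay 1180 bp from the gene 4930555A03Rik. Its nearest protein-coding gene, the endothelial adhesion receptor gene Adgrl4, was 138973 bp away. That region was called in 3 of 3 libraries of each adult vastus and was not separated with 50% cover. On the vastus lateralis side they included regions inside Ncoa2, which encodes a nuclear receptor coactivator, Arid1b, which encodes a subunit of the BAF chromatin remodeller, and Ddr2, which encodes a collagen receptor. The Ncoa2 region was called at or before row 21725 in all 3 vastus lateralis lists, and the Dst region at or before row 38509 in all 3 vastus intermedius lists. Both the Dst and the Arid1b region stayed separated with 57666 rows and with 50% cover, whereas the Ncoa2 region was not separated with 50% cover.

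Among regions with a listed gene inside or nearest, 44 were on the vastus intermedius side (2.9% of its separated regions) and 36 on the vastus lateralis side (2.44%), against 3.07% of the other regions called in 3 of 6. Those of the vastus intermedius nearest to or inside listed genes included Eya4, a transcriptional cofactor gene, Rora, a nuclear receptor gene, Igf1r, the insulin-like growth factor receptor gene, Myoz1, which encodes a fast-fibre Z-disc protein, and the collagen genes Col5a1 and Col6a3. Those of the vastus lateralis included Pax7, the satellite cell factor gene, Notch2, which encodes a receptor that keeps progenitors undifferentiated, Nrap, which encodes a protein of growing myofibrils, and Hdac4, which encodes a repressor of MEF2 factors. The Nrap region was called in 3 of 3 adult vastus intermedius and 3 of 3 adult vastus lateralis libraries. Extracellular matrix loci held a vastus intermedius region at 5 of 20 loci and a vastus lateralis region at 0, against 4.49% and 4.6% of all loci. Of these 5, Col5a1 held one that was separated in both settings. Myogenic loci held a vastus intermedius region at 1 and a vastus lateralis region at 5 of 20, of which Pax7 and Notch2 held one separated in both settings. Both lists held more called regions per locus than most genes. The mean per vastus intermedius library was 13.7 at matrix loci and 9.8 at myogenic loci, against 5.54 over all genes.

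Some loci held several separated regions of one muscle. Of 32615 loci, 1466 held at least 1 vastus intermedius region and 1499 at least 1 vastus lateralis region. The loci with 2 or more of one direction and none of the other were 88 for the vastus intermedius and 85 for the vastus lateralis. The loci named below held 25 (Asb4) to 138 (Etl4) merged regions. Over all genes, a vastus intermedius library called a mean of 5.54 regions per locus. Glis1, which encodes a zinc finger factor, held 3 vastus intermedius regions and had 47, 49 and 44 called regions in the vastus intermedius against 42, 32 and 43 in the vastus lateralis, without overlap in the full lists. Asb4, which encodes a subunit of a ubiquitin ligase, held 2 and had 9, 15 and 8 in the vastus intermedius against 7, 4 and 5 in the vastus lateralis. Etl4 held 3 and had 41, 65 and 40 in the vastus intermedius against 27, 27 and 36 in the vastus lateralis. Shisal1 held 3 vastus lateralis regions and had 22, 23 and 19 in the vastus intermedius against 27, 25 and 29 in the vastus lateralis. Gsg1l held 4 vastus lateralis regions, the most of any locus on that side, and its groups overlapped, at 40, 43 and 35 in the vastus intermedius and 45, 35 and 34 in the vastus lateralis. With the first rows the groups at Glis1, Asb4, Etl4 and Shisal1 overlapped. These loci were picked by their separated regions, and the counts include those regions, so the counts are not separate evidence of a difference.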

How the data were processed

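Peaks were called per library on the mm10 build, as the files show. The submitters' processing notes name MACS2 2.1.1, Bowtie2 2.4.4, Picard and Trimmomatic 0.39.0, among others. Aligner settings and peak thresholds are not given in these sources. The authors deposited chromosome, start and end of each peak, with no score, count or signal. Merging, calls and tests were computed here with Python 3.11.15, NumPy 2.4.6, pandas 2.3.3 and SciPy 1.17.1, and checked on simulated lists. Genes and promoters are from RefSeq (GRCm38.p6), and all 384 genes of 25 lists matched. The comparison and the lists were chosen with earlier results of these data known. Named genes were 24 fixed loci, listed loci without overlap, regions separated in both settings by list position, those at listed genes, loci with several regions, and regions separated the same way in adults. Replicate numbers mark litters, per the labels' protocols. Correlations of deviations from muscle means were 0.0685, 0.0189 and 0.0382 within litters and -0.0596 to 0.0197 across them. Sequences of the distal regions were not used here.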

Additional observations from a re-analysis of the deposited data

Results flagged for a closer look

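The Dcn locus differed between the muscles in opposite directions at the 2 stages with full lists, and the difference was not tested. At E18.5 it had 4, 4 and 5 called regions in the vastus intermedius and 3, 3 and 3 in the vastus lateralis, a difference in mean of 1.33. In adults it had 0, 1 and 0 in the vastus intermedius and 1, 2 and 3 in the vastus lateralis, a difference of -1.67. The 2 differences lie 3 regions apart. The adult groups overlapped at 1, and every adult vastus intermedius list was shorter than every adult vastus lateralis list. With the first 115333 rows the difference was 0 at E18.5 and -1 in adults.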

How the results depend on the processing

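The separated regions numbered 908 for the vastus intermedius, 976 for the vastus lateralis and 1884 in all with the first 115333 rows, 360, 368 and 728 with the first 57666, and 3517, 3794 and 7311 in bins of 500 bp. A call that needed 50% cover gave 862 for the vastus intermedius and 1946 in all. Leaving out 1 library or 1 litter asks less of a region and gave 2416 to 11550 for the vastus intermedius, 2226 to 9959 for the vastus lateralis and 7451 to 19326 in all. The Jaccard difference of -0.00408 ran from -0.0154 to 0.00997 in the same way, and was above 0 without the litter 1 library of the vastus intermedius (0.00997) or of the vastus lateralis (0.000126). The difference in list length ran from -12010 (without litter 2) to 33422. Loci higher without overlap numbered 292 for the vastus intermedius and 273 for the vastus lateralis with 57666 rows, 1689 to 5724 and 1298 to 3649 without 1 litter, and 1820 and 1154 when only the same direction in all 3 litters (the replicate block) was asked.

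The share of separated regions within 1 kb of a gene end, 8.88%, was 10.2% with 115333 rows, 11.8% with 57666 and 11.4% with 50% cover, and 17.4% lay within 2.5 kb. The share called in adult vastus intermedius minus adult vastus lateralis libraries was -8.5 points for vastus intermedius regions and -7.94 for vastus lateralis regions. For vastus intermedius regions it was -2.35 with 115333 rows, -1.76 with 57666 and -3.79 with 50% cover, and for vastus lateralis regions -1.81 and 0.0906 with the shorter lists. Ppargc1a and Mef2a turned to -0.667 and Dcn to -0.333 with 57666 rows. Adult counts with the first rows were chosen after seeing the data. The cause of these shifts was not tested. With the pairing by litter the permutation p-values were 0.25 for separated regions, 0.5 for the Jaccard difference and 0.75 for list length. The depth of the libraries is unknown, so a missing call cannot be read as closed chromatin.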

Other observations

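With the same number of first rows per list, 10 listed loci were free of overlap on the vastus intermedius side and 4 on the vastus lateralis side that overlapped in the full lists. Besides Tbx15, Alx4, Gli3 and Osr2, those higher in the vastus intermedius were Igf1r, Smad3, Col1a1, Igf1, which encodes insulin-like growth factor 1 (7, 5 and 5 called regions against 4, 3 and 3 in the vastus lateralis), Chrnd, which encodes a subunit of the acetylcholine receptor (8, 7 and 6 against 5, 5 and 5), and the Hox gene Hoxa10 (6, 7 and 6 against 5, 5 and 5). Higher in the vastus lateralis were Snap25, which encodes a synaptic fusion protein, Yap1, which encodes the Hippo effector YAP (9, 8 and 8 in the vastus intermedius against 11, 10 and 10 in the vastus lateralis), Lmod2, which encodes a thin filament nucleator (1, 1 and 1 against 2, 2 and 2), and Myh11, the smooth muscle myosin gene (7, 9 and 6 against 11, 10 and 11). The shares over all loci in this setting were 1.64% for the vastus intermedius and 1.93% for the vastus lateralis.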
